A study of Sus scrofa with 6 samples.

Results

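Integrins, cadherins, claudins, connexins and the proteins of tight junctions and desmosomes hold the cells of a follicle to each other and to their matrix. Their transcripts were read in preovulatory follicles of Large White and Chinese Taihu sows. Members were taken by gene symbol from the annotation table of the array: ITGA, ITGB, CDH, PCDH, CLDN, GJA, GJB, GJC, TJP, DSG and DSC genes, and OCLN, DSP, JUP, PKP2 and F11R. A probe set, the group of probes that reads 1 transcript, also had to exceed 50 in signal on no fewer than 3 of the 6 arrays. Of 67 probe sets with such a symbol, 51 passed, and they stand for 36 of 43 genes. They are among 19196 probe sets that passed this level on the whole array, out of 23935 that are not controls.

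Each of the 6 Affymetrix porcine arrays was hybridized with RNA from the follicles over 5 mm of 1 sow, with 3 sows of each breed, all of at least 2 parities. The deposited labels name the Chinese breed Chinese Erhualian, and the paper's name, Chinese Taihu, is used here. Every sow had received 1000 IU of PMSG, a gonadotropin that drives follicle growth, and after 80 h 500 IU of hCG, which acts through the LH receptor and starts ovulation, and was killed between 30 and 38 h later. Sows of a breed came from 1 farm, a different one for each breed, so breed and farm cannot be told apart, and no group was left without hormone. In whole follicles, fewer cells of a type and less RNA per cell cannot be told apart either.

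Integrins are pairs of an alpha and a beta chain that bind matrix or other cells and link them to actin inside the cell. Cadherins join neighbouring cells through contacts between like molecules, claudins and occludin close the space between cells at tight junctions, and connexins form the gap junction channels through which granulosa cells pass small molecules to each other and to the oocyte. Luteinizing hormone closes many of these channels in follicles before ovulation, and the granulosa layer loosens as the follicle wall is remodelled.

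Single sows set the widest differences among the members. Chinese Taihu sow 1 had the highest signal in 20 of the 51 probe sets (39.2%), against 23.5% of all 19196 tested, and in 12 of them (23.5%) its signal was at least 2 times that of every other sow, against 3.90% of all tested. These 12 probe sets read CDH1, CDH13, CDHR4, DSP, CLDN3, CLDN4, CLDN7, CLDN10, OCLN and GJB1. The same sow had the lowest signal in 17 members (33.3%, against 23.1% of all tested), and in 4 of them (7.84%, against 2.19%) every other sow had at least 2 times its signal, which was the case for CLDN11, CDH11, GJA1 and ITGB3. Large White sow 2 stood at least 2 times above every other sow in 2 members (3.92%, against 1.07% of all tested), ITGB2 and ITGB3. None of the other 4 sows stood apart in this way in any member.

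**Figure D1:**
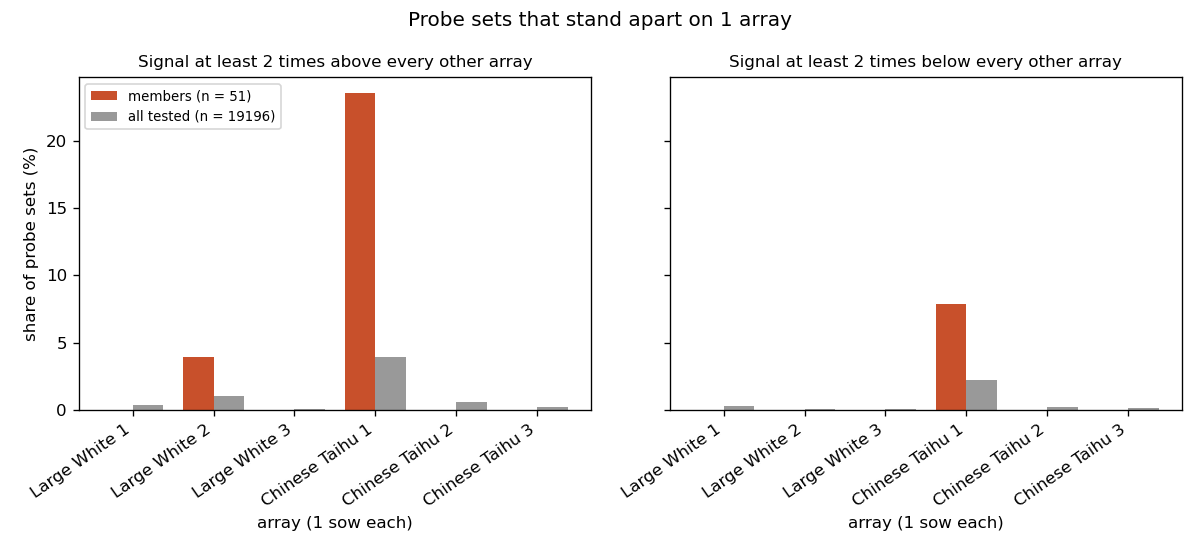
Share of probe sets (vertical axis, percent) whose signal on 1 array (horizontal axis, 1 sow each) was at least 2 times above (left) or below (right) the signal on every other array, for the 51 members (orange) and all 19196 probe sets tested (grey). Among the members, Chinese Taihu 1 holds 23.5% on the left and 7.84% on the right, Large White 2 holds 3.92% on the left, and the other bars of the members are at 0.

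Over the 6 sows the highest signal of a member was 2.46 times the lowest at the median, and 1.75 times over all probe sets tested. A span of at least 8 times was found in 10 members (19.6%, against 4.26% of all tested). A span under 1.5 times was found in 12 members (23.5%, against 31.3%). Signals below are given in the order of Large White sows 1, 2 and 3 and then Chinese Taihu sows 1, 2 and 3, as normalized signal intensities on a linear scale, and levels of different probe sets cannot be set against each other. Where a gene has several probe sets they are numbered as in the plots.

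**Figure D2:**
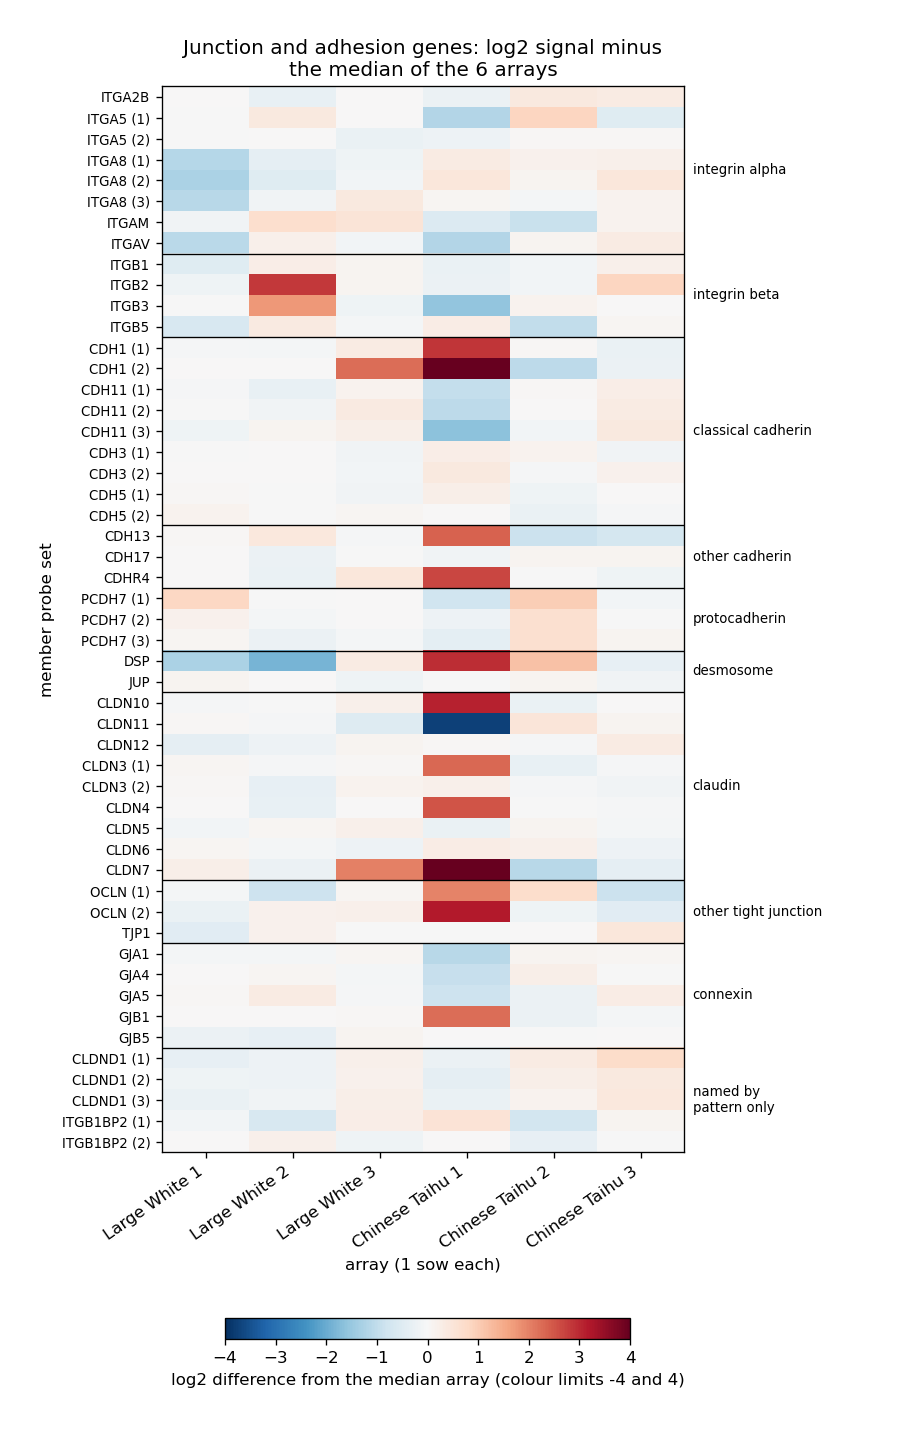
Log2 signal of each of the 51 member probe sets (rows, grouped by family, probe sets of 1 gene numbered) in each sow (columns), minus the median of that probe set over the 6 arrays; colours run from -4 (blue) to 4 (red), and values beyond these limits take the end colours. The column of Chinese Taihu 1 holds most of the strong colours, dark red for CDH1, CLDN7, CLDN10 and OCLN and dark blue for CLDN11, and Large White 2 is red for ITGB2 and ITGB3.

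CDH1, E-cadherin, is the cadherin of epithelial adherens junctions. Its probe set 2 read 221, 219.8 and 1034 in the Large White animals, and 4834, 106 and 185 in the Chinese Taihu. Probe set 1 read 64.6, 63.1 and 84.2, and 478, 68.4 and 55.5. Both probe sets were highest in Chinese Taihu sow 1, at 22.0 and 7.41 times the median of the other 5 sows, and in both Large White sow 3 came second. In probe set 2 the other Chinese Taihu sows were below all 3 Large White sows. CDH3, P-cadherin, the gene next to CDH1 in the RefSeq gene order of the pig, showed no such step. Its signals were 117, 118 and 108, and 141, 129 and 108 in probe set 1, and probe set 2 lay between 82.6 and 118.

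CDH13, T-cadherin, is held in the membrane by a lipid anchor and also binds adiponectin. Its signals were 376, 487 and 349, and 1866, 201 and 221. Chinese Taihu sow 1 was thus 5.35 times the median of the others, and the other Chinese Taihu sows were both below all 3 Large White sows. CDHR4, a cadherin-related protein, read 70.2, 58.3 and 95.5, and 439, 69.2 and 62.3. A further CDHR4 probe set, below the level, showed no such step: it lay between 27.1 and 48.4 and was highest in Large White sow 1. A cadherin of intestinal epithelium, CDH17, varied little, at 109, 91.8 and 105, and 97.5, 115 and 116.

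CDH11, a cadherin of mesenchymal cells, went the other way. Probe set 3 read 1173, 1403 and 1547, and 422, 1224 and 1708, so that the median of the other sows was 3.33 times Chinese Taihu sow 1. Its probe sets 1 and 2 were also lowest in this sow, at 70.7 and 38.3, with 111 to 167 and 72.5 to 102.5 elsewhere. CDH5, the cadherin of blood vessel endothelium, lies 1 coding gene away from CDH11 and had nearly the same signal in all sows. Probe set 1 of CDH5 read 1629, 1528 and 1424, and 1819, 1387 and 1599, and probe set 2 lay between 138 and 180.01.

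PCDH7, a protocadherin of the kind that signals at cell contacts, was read by 3 probe sets, and all were highest in Chinese Taihu sow 2 and lowest in Chinese Taihu sow 1. Probe set 1 read 191, 106 and 107, and 61.0, 208 and 98.7. Probe set 2 read 123, 103 and 112, and 96.2, 171 and 108. In each of them the breeds overlapped, since Chinese Taihu sows held both ends of the range.

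The steepest step of all members was in a claudin. CLDN7, of epithelial tight junctions and lateral membranes, read 109, 80.2 and 373, and 4118, 43.5 and 73.6. This put Chinese Taihu sow 1 at 51.4 times the median of the others and Large White sow 3 second. That median, 80.2, was not far above the level of 50. CLDN10, which forms ion-selective pores in kidney and gland epithelium, read 238, 244 and 282, and 2075, 203 and 246. CLDN4, a sealing claudin, read 254, 204 and 255, and 1452, 250.4 and 243. In both, the 5 sows other than Chinese Taihu sow 1 lay close together, within 203 to 282 for CLDN10 and 204 to 255 for CLDN4.

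CLDN3, a claudin of many epithelia whose gene lies next to CLDN4, was read by 2 probe sets that differed. Probe set 1 read 219.5, 199 and 213, and 1026, 170.4 and 203, again with Chinese Taihu sow 1 far above the rest. Probe set 2 read 287, 219 and 300.3, and 316, 264 and 250.3, a span of 1.44 times. Chinese Taihu sow 1 was highest in both, but by 1.05 times over the next sow in probe set 2.

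CLDN11, the claudin of myelin and of the blood-testis barrier, was the mirror image. It read 3767, 3548 and 2566, and 276, 5070.0 and 3918. The median of the other 5 sows was 13.7 times the signal of Chinese Taihu sow 1, a larger gap than in any other member that was lowest in that sow, and the lowest of those 5 was still 9.30 times above it. CLDN5, of endothelial tight junctions, was even over the sows at 1052, 1211 and 1308, and 950.2, 1240.5 and 1072. CLDN6, of embryonic epithelia, lay between 94.5 and 134, and CLDN12 between 54.6 and 89.0.

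OCLN, occludin, spans the membrane beside the claudins. Probe set 2 read 161, 219 and 225, and 1756, 175 and 144. Probe set 1 read 85.7, 50.7 and 96.3, and 358, 147 and 50.5. A further OCLN probe set did not pass the level, as only 2 sows exceeded 50 in it, and it read 635 for Chinese Taihu sow 1, with 15.97 to 59.0 elsewhere. All 3 thus had their highest signal in the same sow. TJP1, the scaffold protein ZO-1 under the tight junction, did not share the step and read 68.8, 107 and 93.4, and 92.6, 96.3 and 129.

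Desmosomes anchor keratin filaments at cell contacts. DSP, desmoplakin, which ties these filaments to the plaque, read 122, 80.7 and 369, and 2281, 666 and 237. Chinese Taihu sow 1 was 9.63 times the median of the others, and here Chinese Taihu sow 2 came second. A further DSP probe set, below the level, showed no such step and lay between 42.2 and 48.9. JUP, plakoglobin, shared by desmosomes and adherens junctions, read 355, 333 and 295, and 325, 351 and 298, and varied little.

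**Figure D3:**
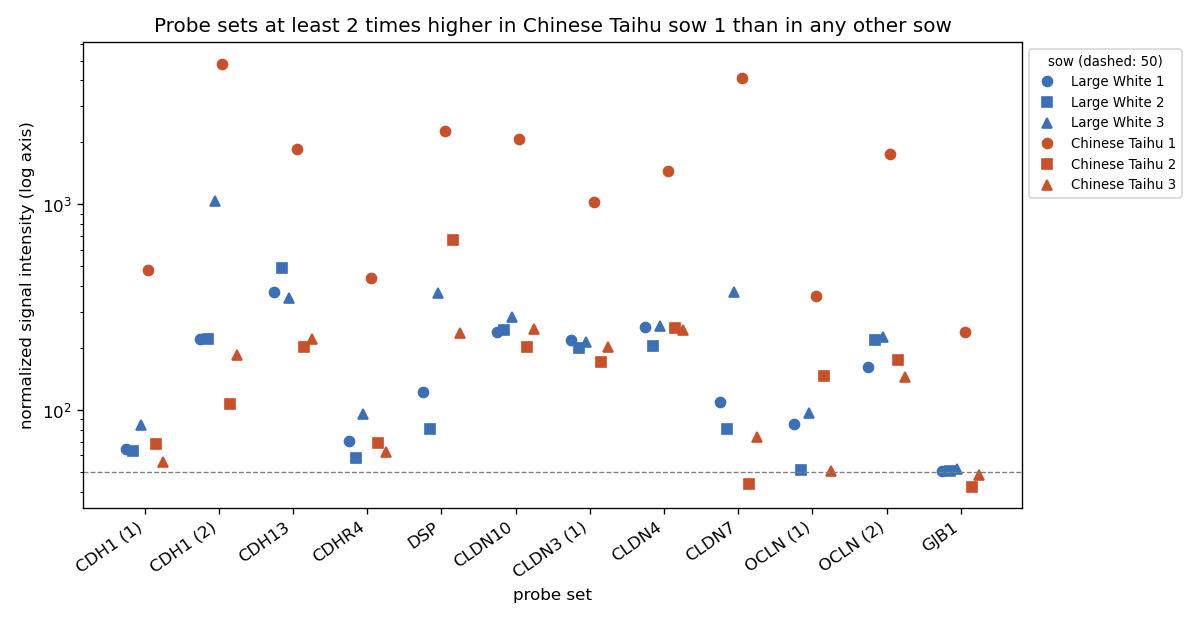
Normalized signal intensity (vertical log axis) of the 12 member probe sets in which Chinese Taihu sow 1 (orange circle) was at least 2 times above every other sow; each point is 1 sow, with Large White in blue, Chinese Taihu in orange and the level of 50 dashed. Large White 3 (blue triangle) was second most clearly in CDH1 probe set 2 (1034) and CLDN7 (373), and by little in CLDN4 (255.3 against 253.9) and GJB1 (51.8 against 50.4).

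Of the 5 connexins, 3 were lowest in Chinese Taihu sow 1, against 23.1% of all tested, and 1 was highest there, against 23.5%. GJA1, connexin 43, the main connexin of granulosa cells, read 3412, 3374 and 3759, and 1657, 3882 and 3739.8. GJA4, connexin 37, which in the mouse couples oocyte and granulosa cells and is also made by endothelium, read 567, 593 and 530.3, and 299, 663 and 555. GJA5, connexin 40 of arterial endothelium, read 959, 1162 and 879, and 512, 771 and 1124. Chinese Taihu sow 1 was the lowest in all 3, and the median of the other sows was 2.26 times its signal for GJA1, 1.90 times for GJA4 and 1.87 times for GJA5. GJB1, connexin 32 of liver and gland epithelium, was instead highest there, at 50.3, 50.4 and 51.8, and 238, 42.3 and 48.0. GJB5, a connexin of skin, lay between 68.1 and 91.2 and was highest in Large White sow 3.

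Markers of other cells also stood apart in Chinese Taihu sow 1. Of 24 markers of surface and oviduct epithelium 13 could be tested. All 13 were highest in Chinese Taihu sow 1, against 23.7% of all genes. In 10 of them this sow was at least 2 times above every other, against 263 of 6322 genes. For ST14, ELF3 and SPINT1 it was 1.02, 1.27 and 1.38 times the next sow. OVGP1, an oviduct glycoprotein, read 11903.5 in this sow, 2382 in Large White sow 3 and 116 to 167 elsewhere. ST14, ELF3, SPINT1 and OVGP1 were named after their values were seen. The summed signal of the 13 ranged over Large White sows from 1993 to 8488, with the top in sow 3. Over the Chinese breed it ranged from 2108 to 47357, with the top in sow 1. The members high in Chinese Taihu sow 1 differed in Large White sow 3. CLDN7 and CDH1 probe set 2 read 373 and 1034 there, above the other Large White sows. CLDN10 and GJB1 read 282 and 51.8 there, with 238 and 244, and 50.3 and 50.4, in the other sows of that breed. EPCAM, an epithelial adhesion protein, read 7761 in Chinese Taihu sow 1, 1653 in Large White sow 3 and 140.4 to 768 elsewhere. KRT8 and KRT18, keratins of simple epithelium, read 8682 and 2475 in Chinese Taihu sow 1, 1571 and 151 in Large White sow 3, and 205 to 517 and 52.4 to 71.3 in the other 4 sows.

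Most markers of the follicle's own cells that stood apart in Chinese Taihu sow 1 were low there. The summed signal of 11 of 12 granulosa cell markers ranged over Large White sows from 19823 to 24860 and over the Chinese breed from 2649 to 28309, and that of 7 of 9 theca cell markers was 10630 to 37341 and 905 to 43064. Such sums follow the probe sets with the highest breed means, in the theca list STAR, CYP11A1 and HSD3B1. These genes of steroid synthesis are not particular to theca cells. TIE1 of the same list, a receptor of endothelium, lay between 191 and 255 and was lowest in Large White sow 3. All were named after their values were seen. In both lists the lowest sum was that of Chinese Taihu sow 1. By gene, this sow was the lowest in 6 of the 11 granulosa cell markers and in 6 of the 7 theca cell markers, against 1524 of 6322 genes. It was the highest in 2 of the granulosa cell markers, CYP19A1 and INHBA, against 1496 of 6322 genes. INHBA, an activin subunit named after its values were seen, read 899 there and from 233 to 387 in the rest. INSL3, a hormone of theca cells, read 48.5 there, with 858 to 3047 elsewhere. CYP17A1, the theca enzyme of androgen synthesis, read 86.1 there, with 104 to 1886 elsewhere, and CYP19A1, aromatase, lay between 88.4 and 119 in all sows. The probe set of the FSH receptor, FSHR, did not pass the level, MYH11 was not analysed here, and no marker was at 0. The part of these cells in the steps of CDH1, CLDN7, CLDN11, GJA1 and the other members was not tested. On the whole array Chinese Taihu sow 1 also correlated least with the others, at 0.834 to 0.887 over probe sets.

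In the probe sets of integrin alpha chains that passed the level, no sow stood 2 times apart from every other. ITGAV, the alpha chain of vitronectin receptors, read 617, 1494 and 1213, and 576, 1409 and 1628, with 1 low sow in each breed. ITGA2B, the alpha chain of the platelet fibrinogen receptor, read 865, 706 and 864, and 732, 1128 and 1098. ITGA5, of the fibronectin receptor, ran from 88.3 in Chinese Taihu sow 1 to 361 in Chinese Taihu sow 2 in probe set 1 and from 96.05 to 121 in probe set 2.

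ITGA8, which pairs with the beta 1 chain and is made by smooth muscle and mesenchymal cells, was the 1 member gene whose breeds did not overlap. Probe set 2 read 128, 223 and 287, and 427, 337 and 425. Probe set 1 read 138, 235 and 267, and 380.2, 341 and 347. In both, every Chinese Taihu sow lay above every Large White sow, and Large White sow 1 was the lowest. Probe set 3 read 94.4, 183 and 264, and 214, 190.4 and 220.4, and there Large White sow 3 was the highest of all.

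The 4 beta chains had their highest signal in Large White sow 2, while 17.0% of all 6322 genes, each by 1 probe set, were highest in that sow. ITGB2, the beta chain of leukocyte integrins, read 232, 1839 and 279, and 218, 242 and 469. ITGB3, the beta chain of platelet and vitronectin receptors, read 184, 614 and 165, and 61.6, 205 and 187. Large White sow 2 thus stood 3.92 times above the next sow for ITGB2 and 2.99 times for ITGB3. ITGB1, the partner of most alpha chains, read 2918, 4936 and 4428, and 3363, 3755 and 4716, and ITGB5, a vitronectin receptor chain, read 822, 1634 and 1206, and 1566, 655 and 1368. For ITGB1 and ITGB5 the signal of Large White sow 2 was 1.05 and 1.04 times that of the next sow.

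ITGAM, the alpha chain that joins ITGB2 on macrophages and neutrophils, was just inside the level, with 3 sows above 50. It read 48.8, 85.9 and 76.2, and 36.7, 28.9 and 59.7, highest in Large White sow 2 by 1.13 times over the next sow. A further ITGAM probe set, below the level, lay between 29.0 and 33.3 and was highest in Chinese Taihu sow 2. Of 24 leukocyte markers 18 could be tested, and 15 were highest in Large White sow 2, against 17.0% of all genes. In 9 of them that sow was at least 2 times above every other, against 103 of 6322 genes. The other 3 were the T cell markers CD3D, CD3E and CD2, named after their values were seen. They were highest in Chinese Taihu sow 1, at 193, 130 and 169. The summed signal of the 18 was 36505 in Large White sow 2 and 8227 and 10976 in the other 2 of that breed. Over the Chinese breed it lay between 9790 and 15151. TYROBP, a signalling adaptor of myeloid cells, read 5138 in Large White sow 2 and 534 to 1011 elsewhere, and PTPRC, the leukocyte antigen CD45, 109.5 and 51.8 to 78.9. The part of these cells in the signals of ITGB2, ITGB3 and ITGAM was not tested.

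Sums over the markers of the vessel wall and of smooth muscle spanned a narrower range than those above. The summed signal of 9 of 15 endothelial markers ranged from 2977 to 4030 over Large White sows and from 3352 to 3905 over the Chinese breed. PECAM1, an adhesion protein of endothelium, lay between 1171 and 1775, and VWF, a clotting protein of the same cells, between 349 and 565. Other genes of this list spanned more, and those named here were chosen after their values were seen: ENG, a coreceptor of endothelium, ran from 105 in Chinese Taihu sow 1 to 362, and TEK, an angiopoietin receptor, from 273 to 735 in Chinese Taihu sow 1. The sum of 8 of 12 smooth muscle and pericyte markers ranged from 16935 to 23944 over Large White sows and from 18486 to 21583 over the Chinese breed, and ACTA2, smooth muscle actin, lay between 8013 and 10610.0. In 2 of the 8, Chinese Taihu sow 1 was at least 2 times above every other sow, against 263 of 6322 genes. These were CNN1 and DES, also named after their values were seen. CNN1, calponin, read 665, 1528 and 1826, and 3979, 1062 and 472, and DES, desmin, 186, 208 and 402, and 853, 212 and 119.

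**Figure D4:**
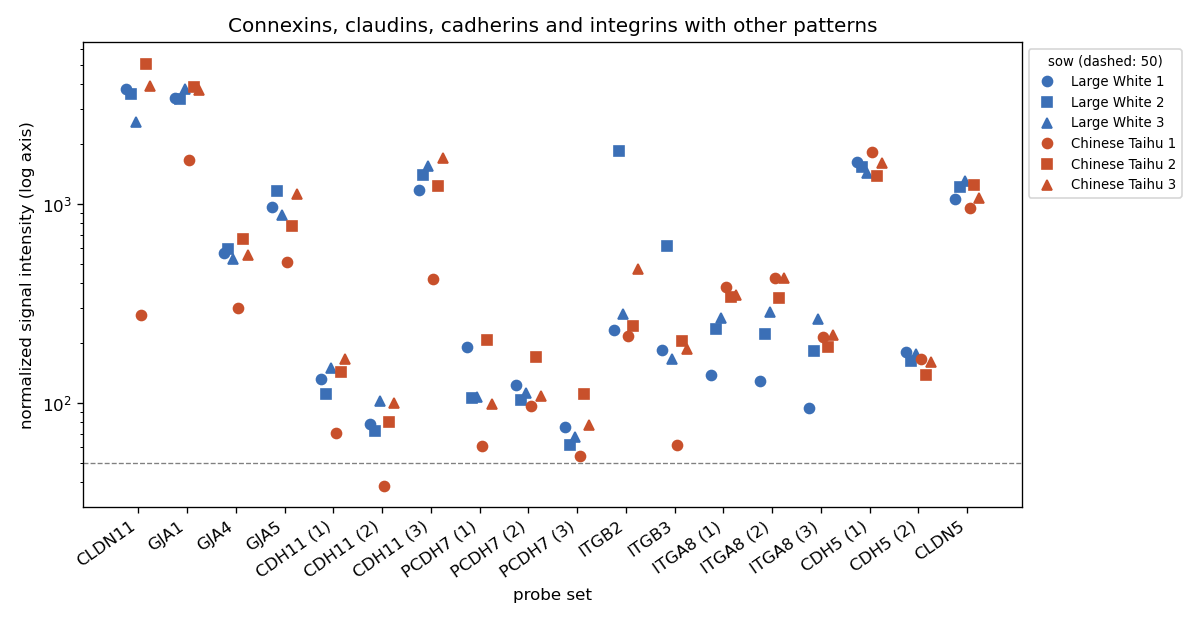
Normalized signal intensity (vertical log axis) of members with other patterns, 1 point per sow, Large White in blue and Chinese Taihu in orange, the level of 50 dashed. CLDN11, GJA1, GJA4, GJA5 and CDH11 have Chinese Taihu 1 (orange circle) at the bottom, ITGB2 and ITGB3 have Large White 2 (blue square) at the top, probe sets 1 and 2 of ITGA8 have the breeds apart, and CDH5 and CLDN5 are even.

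Set against the breeds, none of the 51 members passed the adjusted threshold of 0.05 in limma, where 4 of the 19196 probe sets tested (0.0208%) did. With unadjusted p-values up to 0.05, 2 members (3.92%) were higher in Chinese Taihu sows, against 1.56% of all tested, and 0 were lower, against 2.30%. Both were probe sets of ITGA8, and with the methods' t-test neither reached that level. The breeds did not overlap in the same 2 members (3.92%), a smaller share than the 9.10% of all probe sets tested.

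Probe set 2 of ITGA8 averaged 213 ± 79.7 (SD, n = 3) over Large White sows and 396 ± 51.2 over the Chinese breed. The difference, Chinese Taihu minus Large White as everywhere here, was 0.97 on the log2 scale (SE 0.32, limma p = 0.0221, adjusted p = 0.993, exact permutation p = 0.1, 2-sided, the smallest that 3 sows against 3 allow). Probe set 1, at 213 ± 66.8 and 356 ± 21.0, differed by 0.79 (SE 0.28, limma p = 0.0261, adjusted p = 0.993, exact p = 0.1). Probe set 3 differed by 0.33 (SE 0.37, limma p = 0.416, exact p = 0.7), with overlap. Without Chinese Taihu sow 1, the limma p was 0.0519 for probe set 2 and 0.0597 for probe set 1, without sow 3 of that breed it was 0.0613 and 0.0564, and without its sow 2 it was 0.0315 and 0.052. The differences stayed near their size without sow 1 (0.91 and 0.75) or sow 3 (0.91 and 0.81) of that breed. Without Large White sow 1, the lowest, they were 0.64 and 0.51, with a limma p of 0.0391 and 0.0429. The 9 hybridization spike-ins were also higher on the Chinese Taihu arrays, at 1.31 to 1.47 times the Large White mean against 0.940 to 1.08 times, and their part was not tested.

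DSP had the largest difference among the members, 2.21 on the log2 scale (SE 0.92, limma p = 0.0512, adjusted p = 0.993, exact p = 0.2), from 191 ± 156 (SD, n = 3) over Large White sows to 1061 ± 1078 over the Chinese breed. Without Chinese Taihu sow 1 it was 1.37 (SE 0.75). ITGAM was next in rank of p below ITGA8 and DSP, with a difference of -0.78 (SE 0.34, limma p = 0.0574, exact p = 0.2). Each of the 12 probe sets that stood high in Chinese Taihu sow 1 had a difference above 0, but 0 of the 12 reached an unadjusted p of 0.05, and their SE was 0.65 to 1.73. With that sow left out their SE was 0.16 to 0.75, and the difference was below 0 in 9 of the 12. CLDN7 went from 0.67 (SE 1.73) to -1.39 (SE 0.68), and CDH1 probe set 2 from 0.31 (SE 1.49) to -1.40 (SE 0.74).

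CDH13 was the 1 member called lower in Chinese Taihu sows without sow 1, at -0.92 (SE 0.23, with a limma p of 0.00716 and no adjusted call), after 0.13 (SE 0.85) with all 6 sows. In that smaller comparison 0 members were higher, against 1.47% of all tested, and 1 was lower, against 2.19%. The members that stood low in Chinese Taihu sow 1 also moved: CLDN11 from -0.88 (SE 1.08) to 0.46 (SE 0.24), CDH11 probe set 3 from -0.51 (SE 0.52) to 0.08 (SE 0.26) and GJA1 from -0.28 (SE 0.34) to 0.12 (SE 0.16). Members with even signals had small differences either way, such as JUP at -0.01 (SE 0.17), CDH5 probe set 1 at 0.06 (SE 0.18) and CLDN5 at -0.13 (SE 0.19).

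**Figure D5:**
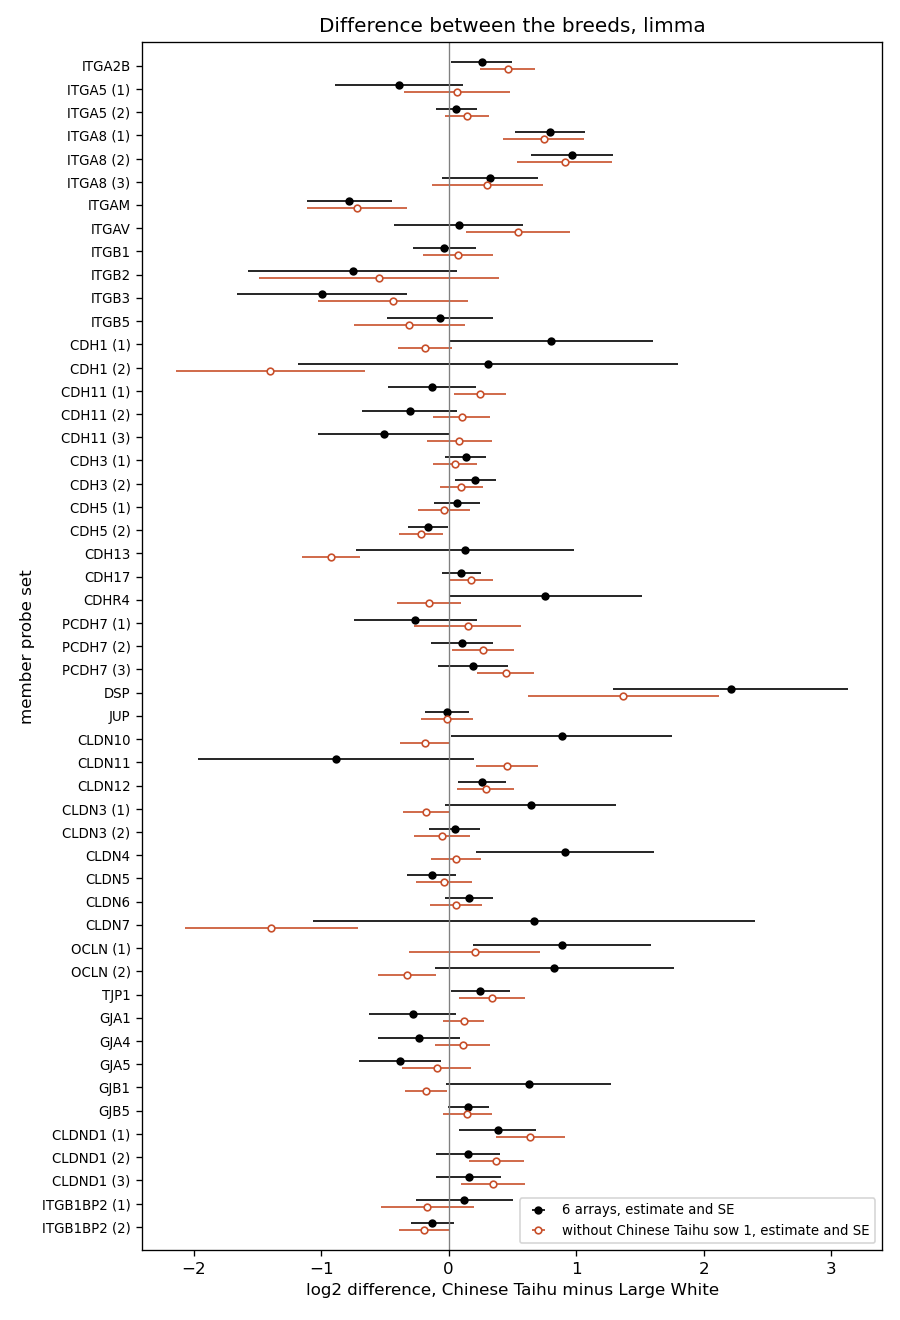
Difference in log2 signal, Chinese Taihu minus Large White (horizontal axis), of each of the 51 member probe sets (vertical axis), with its standard error from limma, over all 6 sows (black) and without Chinese Taihu sow 1 (orange, open). The bars of CDH1, CLDN7, CLDN10, CLDN11, OCLN and CDH13 shrink and most of their points cross 0 without that sow, while probe sets 1 and 2 of ITGA8 stay near their values (0.75 and 0.91).

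By family, the median difference was 0.17 on the log2 scale over 8 integrin alpha probe sets, -0.41 over 4 integrin beta, 0.06 over 9 of classical cadherins, 0.26 over 9 of claudins and -0.23 over 5 of connexins. Over all 51 members it was 0.125, and over all probe sets tested 0.002. Without Chinese Taihu sow 1 the median was 0.38 for integrin alpha chains, -0.04 for claudins, 0.11 for connexins and 0.075 for all members, and without Large White sow 2 that of the integrin beta chains was 0.145. For claudins and connexins the sign of the median turned without Chinese Taihu sow 1. Other cadherins also turned then, from 0.125 over 3 probe sets to -0.156. For integrin beta chains the median was -0.37 without that sow, and it turned without Large White sow 2. Medians of 1.1 over 2 desmosome probe sets and 0.83 over 3 of other tight junction proteins became 0.68 and 0.20 without Chinese Taihu sow 1.

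Of 52 listed partner proteins of the junctions, 17 could be tested, each by its brightest probe set. With unadjusted p-values up to 0.05, 1 was higher (against 1.04% of all genes) and 1 was lower (against 2.63%), with a median of 0.18. CTNNAL1, alpha-catulin, a relative of the catenins that tie cadherins to actin, read 87.3, 139 and 167, and 429.8, 249.9 and 217, a difference of 1.18 (SE 0.35, limma p = 0.0143, adjusted p = 0.993, exact p = 0.1). MARVELD1, of the membrane protein family that includes occludin, read 1676, 2619 and 1711, and 814, 1039 and 1143, a difference of -0.99 (SE 0.25, limma p = 0.00717, adjusted p = 0.993, exact p = 0.1). In both the breeds did not overlap. Such a gap was found in 1 of the 17 with higher signals in Chinese Taihu sows, against 167 of 6322 genes. It was found in 2 of the 17 with lower signals there, against 389 of 6322 genes. The other lower gene was CDC42, named after its values were seen, at 1656, 2238 and 1885, and 1097, 1484 and 1625. Chinese Taihu sow 1 was the highest in 6 of the 17, against 23.7% of all genes. It was at least 2 times above every other sow in 4 of them, against 263 of 6322 genes. These were MARVELD3, LSR, PRKCZ and PPL, named after their values were seen. PPL, periplakin of the desmosome plaque, read 83.0, 74.1 and 262, and 2029.7, 115 and 286.

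Of 37 proteins that link integrins to actin or sit beside them in the membrane, 15 could be tested, 0 were higher (against 1.04% of all genes) and 1 was lower (against 2.63%) at unadjusted p-values up to 0.05, and the median was -0.22. ACTN1, alpha-actinin, which crosslinks actin at focal adhesions, read 4486, 7348 and 5229.6, and 2529, 2831 and 2508, a difference of -1.09 (SE 0.21, limma p = 0.00167, adjusted p = 0.712, exact p = 0.1). Every Chinese Taihu sow was below every Large White sow. The breeds lay apart in this direction in 2 of the 15, against 389 of 6322 genes. They lay apart the other way in 0 of the 15, against 167 of 6322 genes. The other lower gene was FLNA, named after its values were seen, at 3600, 4146 and 3531, and 3007, 3461 and 3141.

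The pattern of symbols also took in genes that are no junction proteins. CLDND1, a claudin-domain protein, was read by 3 probe sets with differences of 0.15 to 0.38 and overlap of the breeds, each highest in Chinese Taihu sow 3. Its probe set 1 read 512, 556 and 744, and 546, 812 and 1060.4, and probe set 3 read 762, 824 and 1066, and 752, 1014 and 1222. ITGB1BP2, melusin, a muscle protein that binds the integrin beta 1 tail, was read by 2, at 0.12 and -0.13.

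The 16 probe sets below the level read ITGA2, ITGA6, ITGB7, CDH6, CDH24, CLDN14 and PCDH11X, 7 genes with no probe set that passed, and further probe sets of ITGAM, CDHR4, DSP, OCLN and GJB5. ITGA2, the alpha chain of a collagen receptor, was just outside the level, with 2 sows above 50. Its second probe set read 58.8, 49.8 and 45.9, and 40.3, 309 and 24.3. Its first read 222 in Chinese Taihu sow 2 and 24.3 to 47.9 elsewhere, so both were highest in that sow. CLDN14 also had 2 sows above 50, at 51.0 and 51.9.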

How the data were processed

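The deposited values are normalized signal intensities on a linear scale. The authors scanned the arrays, computed signals with MAS5 (version 2.3.1 in the submitters' processing notes) and used dChip's invariant set to normalize between arrays, so that arrays have a like overall level and a change in total RNA per follicle cannot be seen. Arrays were grouped by the breed in the labels. The 188 controls were dropped, signals were raised to a floor of 1 before log2, and breed was fitted over the 19196 probe sets in limma 3.58.1 (R 4.3.3) with a mean-variance trend, 2-sided, with Benjamini-Hochberg adjustment. The number of arrays limits the precision. Python 3.11.15 with pandas 2.3.3, numpy 2.4.6, scipy 1.17.1 and matplotlib 3.10.9 did the rest.

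Symbols came from GEO's platform annotation, which may be old: 10069 probe sets had 1 symbol, 198 several and 13668 none. All 67 matched probe sets had an entry in the RefSeq gene table of Sscrofa11.1, which gave the gene order, and 0 symbols differed. Another 2 probe sets with several symbols were not used. For lists, the brightest probe set stood for a gene. Lists were junction partners, integrin adhesion complex, and markers of epithelium, granulosa, theca, endothelium, smooth muscle and leukocytes. Members and lists were chosen with earlier results of these data known. Every member is named. Signals of all 6 sows are given for members with unadjusted p-values up to 0.05, a span of at least 8 times or among the 2 brightest of a family, and for others chosen after their values were seen. Of the lists, genes at that p and preset defining markers are named, and others, where the text says so, after their values were seen. The count of members 2 times apart in 1 sow was chosen after the data were seen. The fit was tested on simulated data. The labels say nothing of litters, and p-values measure the spread between these sows only.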

Additional observations from a re-analysis of the deposited data

How the results depend on the processing

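Alternatives were other normalizations, filters, a floor of 16, array weights, a constant prior variance, the methods' t-test, a replicate block and each sow left out. The adjusted calls on the whole array (4) became 11 with array weights, 0 with the methods' t-test and 2 to 4 with a sow left out, and the 741 unadjusted calls 1303 with weights and 373 to 1225 with a sow left out. The array numbers did not pair the sows (correlations of same-numbered deviations -0.172, -0.137 and 0.273). With the replicate block 0 adjusted calls remained on the whole array, and 2 members stayed higher and 0 lower. Members called higher (2) were 0 with the methods' t-test, 1 with 1 probe set per gene and 0 to 3 with a sow left out: 0 without Chinese Taihu sow 1, 1 (ITGA8) without sow 2 and 2 without sow 3, which were then DSP and OCLN in place of ITGA8. Members called lower (0) were 1 with median scaling and 1 with weights, in both ITGAM, and 0 to 1 with a sow left out (ITGAM, ITGA5 or CDH13). The only called member to turn its sign was CDH13, at -0.92 without Chinese Taihu sow 1 (-0.92 to 0.68 over the sows left out). DSP reached a limma p of 0.0453 with quantile normalization and 0.0456 with median scaling. The members' median (0.125) was 0.089 at a level of 100, 0.089 with 1 probe set per gene and 0.075 to 0.135 with a sow left out. Members highest in Large White sow 1 (2) were 5 with no filter and 1 with 1 probe set per gene, those highest in Large White sow 3 (4) were 2 at a level of 100 and 2 with 1 probe set per gene, and those highest in Chinese Taihu sow 2 (9) were 16 with no filter. Over all members and alternatives, 734 values stayed on their side of the threshold, 10 passed it, 7 no longer did and 1 called value reversed; values called in neither fit could turn their sign, as CLDN7 and CLDN11 did without Chinese Taihu sow 1. The causes were not tested. Signals near 50, as in GJB1, ITGAM, CLDN12, probe set 1 of OCLN, and some sows of CLDN7, CDHR4 and probe set 1 of CDH1, are close to the level asked for.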
